A study of Homo sapiens with 9 samples.

Results

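Metallothioneins and their zinc-dependent regulation were followed in hTERT_RPE1 cells through 8 genes, chosen by symbol among the 26475 rows of the gene count table: the metallothioneins MT1E, MT1F, MT1G, MT1M, MT1X and MT2A, the transcription factor MTF1 and the zinc exporter SLC30A1. The rule goes by symbol, but the genes were chosen with earlier results of these data known. Of the 8 genes, 7 had enough counts to be tested, among 13784 tested genes in all. hTERT_RPE1 is an established line from human retinal pigment epithelium that was made immortal by telomerase. Control cells carried the empty pLKO_1 vector and were grown for 24 h on glass coated with fibronectin (FN), and the sh_PIP4K2B cells, grown on the same surface, carried 1 of 3 different short hairpin RNAs against the lipid kinase PIP4K2B. Soft cells were grown for 24 h on an FN-coated hydrogel of 2.3 kPa and carried the empty vector, which the treatment label of both vector groups calls a control shRNA. The comparisons ask how loss of the kinase on a stiff surface and growth on a soft surface each change the cell's RNA. Each condition had 3 libraries, each of the sh_PIP4K2B libraries with its own hairpin, so the spread in that condition also holds differences between hairpins. No source used here says whether the Control and Soft libraries came from separate cultures, and p-values measure the spread between these libraries, shared over the 3 conditions in 1 fit.

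Metallothioneins are small, cysteine-rich proteins that bind zinc and copper and buffer the free metal in the cell. When zinc rises, the zinc-finger factor MTF1 binds metal response elements in the promoters of the metallothionein genes and of SLC30A1, which carries zinc out across the plasma membrane. Metallothionein genes are also known to respond to cadmium, oxidative stress and glucocorticoids, and some are silenced in cell lines by methylation of their promoters.

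The 6 metallothionein genes lie in 1 cluster on chromosome 16 (GRCh38, GENCODE annotation, whole genes). MT2A spans 16:56608584-56609497, MT1E 16:56625475-56627112, MT1M 16:56632659-56633981, MT1F 16:56657731-56660698 and MT1X 16:56682470-56684196, all on the plus strand, and MT1G spans 16:56666730-56668065 on the minus strand. MTF1, at 1:37809574-37859592, and SLC30A1, at 1:211571568-211579161, are both on the minus strand of chromosome 1. Metallothionein transcripts resemble each other, so the exact 75-base words of each canonical transcript, the length of a read, were searched in all other annotated genes. MT2A, MT1M, MT1F and SLC30A1 shared 0% of their words with another gene, MTF1 0.0509%, MT1E 1.64%, MT1G 6.55% and MT1X 36.1%. The MT1X words were shared with an unnamed overlapping gene on the same strand, with MT1G and with the pseudogene MT1XP1, so the value of MT1X is uncertain to that extent. MTF1 overlaps an annotated gene on the opposite strand, and the strand setting of the counting is not given in the sources used here.

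The sequences before 3 of the transcription starts are shown because they carry the letters through which MTF1 is known to act. The core of the metal response element was searched as TGCACNC and TGCGCNC on both strands in the 250 bases before each start in RefSeq (GRCh38.p14), and matches are in capitals in the sequences, which read 5′ to 3′ on the strand of the gene. The promoter table held 4 of the 8 genes (MT2A, MT1X, MTF1 and SLC30A1). The MT2A window is chr16:56608334-56608583 on the plus strand, the MT1X window is chr16:56682220-56682469 on the plus strand, and for SLC30A1 the last 100 bases are printed, chr1:211579162-211579261 on the minus strand.
MT2A: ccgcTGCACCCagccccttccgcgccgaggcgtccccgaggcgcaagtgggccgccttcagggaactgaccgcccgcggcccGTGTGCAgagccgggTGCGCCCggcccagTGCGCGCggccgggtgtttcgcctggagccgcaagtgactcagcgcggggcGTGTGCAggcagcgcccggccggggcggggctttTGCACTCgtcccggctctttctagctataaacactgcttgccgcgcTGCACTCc
MT1X: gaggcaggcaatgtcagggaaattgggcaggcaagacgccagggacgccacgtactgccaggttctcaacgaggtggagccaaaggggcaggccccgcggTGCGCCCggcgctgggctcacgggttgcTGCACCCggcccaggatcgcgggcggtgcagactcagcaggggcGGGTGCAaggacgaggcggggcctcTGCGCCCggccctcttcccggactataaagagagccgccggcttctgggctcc
SLC30A1: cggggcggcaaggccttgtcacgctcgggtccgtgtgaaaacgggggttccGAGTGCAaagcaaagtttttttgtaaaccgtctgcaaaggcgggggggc
MT2A held 7 matches, none of them overlapping another, which span bases -246 to -2 before the start. As many or more stood in 0.0313% of the 35116 promoters of the same length. MT1X held 4, between bases -150 and -47, a number reached by 0.37% of promoters. The metallothionein genes MT1H and MT1B, outside the 8 and without a count in any library, held 8 (0.0171% of promoters) and 3 (1.58%). SLC30A1 held 1 match, 49 to 43 bases before its start, and 24.8% of all promoters hold at least 1. The MTF1 window held no match, which says only that these letters are not in that window. A match is a run of letters and was not tested as a binding site.

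Levels are given as CPM, counts per 1000000 counts of a library whose size is scaled by the trimmed mean of M-values (TMM), and differences as log2 fold changes with their standard error (SE) and Benjamini-Hochberg adjusted p from edgeR's quasi-likelihood test over all 13784 genes, with a threshold of 0.01. Total counts per library ran from 19217346 to 24020799. The silenced gene, PIP4K2B, was read at 119.5 to 123.7 CPM in Control, at 48.4, 40.9 and 36.6 CPM with hairpins #1, #2 and #3, and at 119 to 127 CPM in Soft. The 3 hairpin libraries stood apart from each other, with a median SD of log2 CPM over genes of 0.356, against 0.0807 in Control and 0.0733 in Soft. The fit over all 9 libraries shares the spread, so the narrower spread in Soft also enters the p-values of sh_PIP4K2B against Control. The 13 listed pigment epithelium markers differed in level, and 6 of them had enough counts to be tested. DCT and TTR had no count in any library and RPE65 at most 0.0494 CPM. RLBP1 had no count on glass and 0.313 to 0.524 CPM in Soft. MITF was present at 24.4 to 39.3 CPM, OTX2 at 10.3 to 39.4 CPM and RDH5 at 2.22 to 22.1 CPM, highest in Control. In a bulk library, fewer cells that express a gene and less RNA per cell cannot be told apart.

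**Figure D1:**
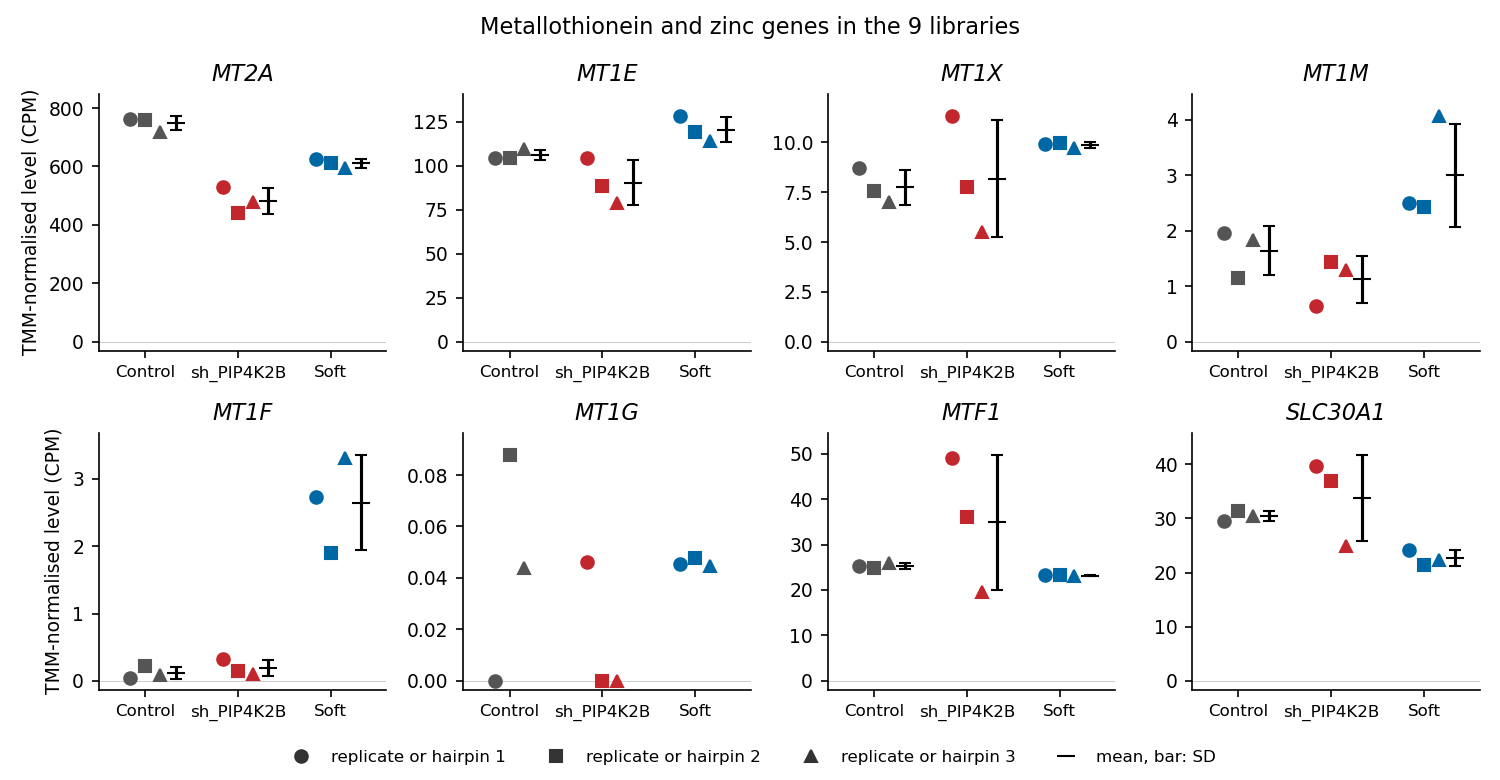
TMM-normalised level in CPM (linear axes, 1 panel per gene) of the 8 genes in the 9 libraries. Each point is 1 library, its shape gives the replicate or hairpin number, and dash and bar are mean and SD of 3 libraries (not drawn for MT1G, which is at or under 2 counts in every library). MT2A is lowest with the hairpins, MT1F is at 1.90 CPM or more in Soft only, and MTF1 and SLC30A1 spread widely between hairpins.

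MT2A supplied most of the metallothionein RNA. Per kilobase of canonical transcript, the scale on which levels of different genes can be set side by side, its mean Control level was 1865 ± 61.5 CPM per kb (SD, n = 3), against 142 ± 3.91 for MT1E, 19.2 ± 2.17 for MT1X, 4.13 ± 1.11 for MT1M and 0.277 ± 0.213 for MT1F. On the same scale SLC30A1 stood at 5.17 ± 0.161 and MTF1 at 3.19 ± 0.0741 CPM per kb. Of these neighbours, SLC30A1 and MT1M, and MT1M and MTF1, lay within 1 SD of MT1M of each other. In Soft, MT1M reached 7.54 ± 2.32 and MT1F 6.23 ± 1.66 CPM per kb, both with higher means than SLC30A1 at 3.85 ± 0.241 and MTF1 at 2.92 ± 0.0149.

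In sh_PIP4K2B against Control, MT2A fell and no other of the 7 tested genes passed the threshold. That is 1 of 7, where 5.54% of all genes passed (2.76% higher, 2.77% lower). MT2A was also the only 1 of the 7 whose hairpin and Control libraries did not overlap, a separation seen in 34.1% of genes. The median log2 fold change of the 7 genes was 0.08, beside 0.05 for all genes.

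In Soft against Control, MT1F, which was kept for testing through its Soft counts, rose, and the other 6 tested genes did not pass. Here 30.6% of all genes passed (15.8% higher, 14.8% lower). All 7 genes had Soft libraries that did not overlap those of Control, as 79.4% of all genes had, and their median log2 fold change was 0.19, beside 0.01 for all genes. Without the hairpin libraries, whose spread enters the common fit, 6 of the 7 genes passed, in a fit of only Soft and Control that called 70.7% of all genes: MT1F, MT1E (adjusted p = 0.0028), MT1M (0.0044) and MT1X (0.0044) higher, and MT2A (2.5e-06) and SLC30A1 (1.5e-05) lower, while MTF1 did not pass (0.047).

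Soft set directly against sh_PIP4K2B gave 1 gene past the threshold, again MT1F, where 30.0% of all genes passed (14.5% higher, 15.5% lower). The libraries of these conditions did not overlap for 5 of the 7 genes (MT1E, MT1F, MT1M, MT2A and SLC30A1), against 54.0% of all genes. The median log2 fold change of the 7 was 0.34, beside -0.03 for all genes. Both comparisons against Control share its 3 libraries, so their values stand side by side and were not correlated.

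**Figure D2:**
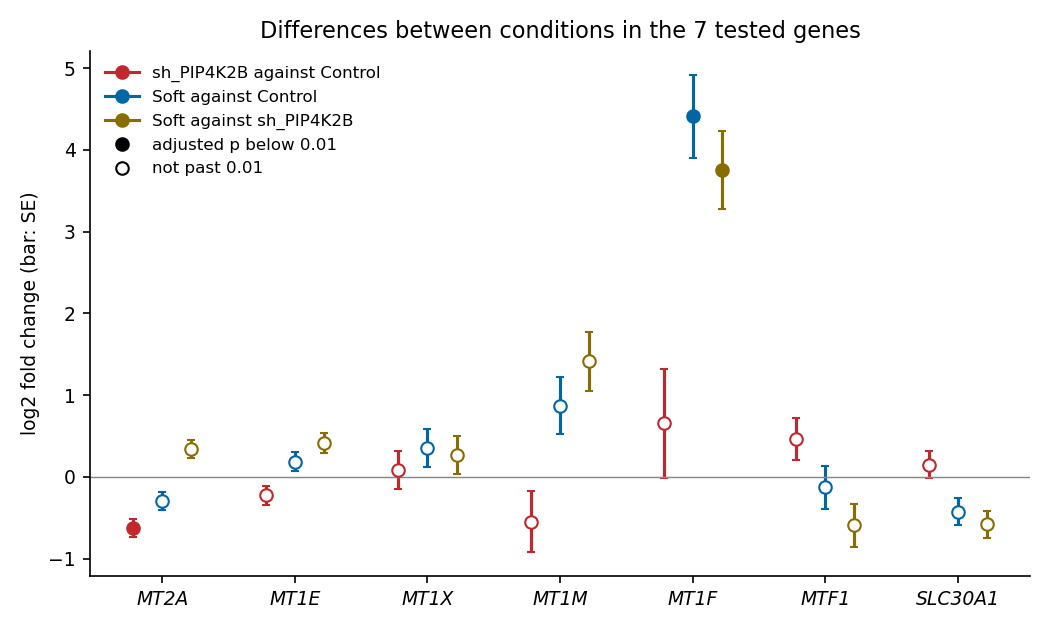
Log2 fold change of the 7 tested genes (points, bars: SE) in the 3 comparisons, with filled points past an adjusted p of 0.01 in the fit over all 9 libraries. MT1F stands at 4.41 in Soft against Control and 3.76 in Soft against sh_PIP4K2B, and MT2A at -0.63 in sh_PIP4K2B against Control. All other points are open and lie between -0.59 and 1.42.

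MT2A, the main metallothionein of most human cells, was at 764, 760.5 and 719.5 CPM in the 3 Control libraries, at 529.8, 441 and 479 CPM with hairpins #1, #2 and #3, and at 625, 613 and 594 CPM in Soft. Each hairpin library lay below each Soft library, and each Soft library below each Control library. Against Control, MT2A fell by 0.63 on the log2 scale with the hairpins (SE 0.11, adjusted p = 0.0063, edgeR), to 70.8%, 58.9% and 64.0% of the Control mean. In Soft the log2 difference was -0.29 (SE 0.11, adjusted p = 0.053), and between Soft and sh_PIP4K2B it was 0.34 (SE 0.11, adjusted p = 0.031), neither past the threshold. The call with the hairpins held without any 1 hairpin, but was lost without any 1 Control library (adjusted p 0.029 to 0.042, edgeR) or any 1 Soft library (0.019 to 0.020), and in a fit of only sh_PIP4K2B and Control (0.057), where 5 of 13331 genes passed. DESeq2 also called MT2A lower in Soft (log2 fold change -0.31, adjusted p = 0.00845), as did edgeR without hairpin #1 (-0.31, adjusted p = 0.00479).

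MT1E came second in level and did not follow MT2A. It was read at 104, 104 and 109 CPM in Control, at 104, 88.2 and 78.9 CPM with hairpins #1 to #3, and at 128, 119 and 114 CPM in Soft. All Soft libraries were above all others, and hairpin #1 lay among the Control libraries while hairpins #2 and #3 were below them. None of its differences passed the threshold in the common fit: the log2 fold change was -0.23 for sh_PIP4K2B (SE 0.12, adjusted p = 0.21), 0.19 for Soft (SE 0.12, adjusted p = 0.22) and 0.41 for Soft against sh_PIP4K2B (SE 0.12, adjusted p = 0.017). The last passed without hairpin #1 (0.52, adjusted p = 0.0011), with upper quartile scaling (0.0064) and by DESeq2 (0.0070).

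MT1X was at 8.71, 7.55 and 6.99 CPM in Control, at 11.3, 7.76 and 5.49 CPM with hairpins #1 to #3, and at 9.94, 10 and 9.70 CPM in Soft. The hairpins lay on both sides of Control, with hairpin #1 at 146% and hairpin #3 at 70.8% of its mean. No difference passed: 0.08 for sh_PIP4K2B (SE 0.23, adjusted p = 0.84), 0.35 for Soft (SE 0.23, adjusted p = 0.24) and 0.27 between them (SE 0.23, adjusted p = 0.37). Without hairpin #1 the first of these turned to -0.23.

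MT1M, a low metallothionein, was supported by 14 to 91 counts a library. Its level was 1.96, 1.14 and 1.84 CPM in Control, 0.645, 1.45 and 1.29 CPM with hairpins #1 to #3, and 2.51, 2.43 and 4.07 CPM in Soft. Soft was above both other conditions in every library, with replicate 3 the highest. The log2 fold change was 0.87 in Soft against Control (SE 0.35, adjusted p = 0.065), -0.55 in sh_PIP4K2B against Control (SE 0.37, adjusted p = 0.33) and 1.42 in Soft against sh_PIP4K2B (SE 0.36, adjusted p = 0.0105), the last just outside the threshold and past it by DESeq2 (adjusted p = 0.0016).

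MT1F was nearly silent on glass and was read in Soft. The counts themselves were 1, 5 and 2 in Control, 7, 3 and 2 with hairpins #1 to #3, and 60, 40 and 74 in Soft, or 0.0466, 0.219 and 0.0874 CPM, 0.322, 0.145 and 0.0989 CPM, and 2.74, 1.90 and 3.31 CPM. MT1F passed the filter on low counts through the Soft libraries, since it was at or near the floor of 3 counts in most libraries on glass. Its summed counts, 174 in Soft and 8 in Control, gave a ratio of 22.4 after scaling (95% interval 11.1 to 52.6, counting error only). Against the 12 counts of sh_PIP4K2B the ratio was 13.9 (7.77 to 27.5), and sh_PIP4K2B against Control gave 1.61 (0.604 to 4.53).

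The fitted log2 fold change of MT1F was 4.41 in Soft against Control (SE 0.51, adjusted p = 1.5e-04, edgeR) and 3.76 in Soft against sh_PIP4K2B (SE 0.48, adjusted p = 3.0e-04). With the hairpins it was 0.66 against Control (SE 0.67, adjusted p = 0.53). Since the filter on low counts kept MT1F for its Soft libraries, a gene kept in this way had to be high there, and these p-values only describe the counts above. With no filter beyond 1 count in all, the values were 4.40 (adjusted p = 8.8e-05, edgeR) and 3.75 (adjusted p = 1.9e-04). PECAM1, an adhesion molecule of endothelial cells and leukocytes and 1 of 7 markers listed for them, was also higher in Soft, at 4.70, 5.33 and 4.34 CPM against at most 0.218 CPM in Control (log2 fold change 5.45, SE 0.54, adjusted p = 7.4e-05, edgeR). Like MT1F, it was kept by the filter through its Soft libraries (103, 112 and 97 counts, against 1, 1 and 5 in Control). Its p-value therefore only describes these counts. The summed level of the 7 markers was 149 to 153 CPM in Soft, 65.1 to 69.3 CPM in Control and 43.3 to 81.3 CPM with the hairpins, most of it CD68, which shares 90.3% of its 75-base words with an overlapping gene. The defining markers CDH5, CD3E and LYZ were at 0 to 0.0989 CPM in every library and PTPRC at 0.286 to 0.358 CPM in Soft and 0.351 to 0.524 CPM in Control. VWF was at 0.524 to 0.638 CPM in Soft, 0.230 to 0.297 CPM with the hairpins and 0.0878 to 0.655 CPM in Control. Its difference between Soft and Control did not pass (log2 fold change 0.66, adjusted p = 0.33, edgeR). The part of such cells in the MT1F result was not tested beyond these values.

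MT1G was not detectable as different between conditions at this depth. It had 0, 2 and 1 counts in Control, 1, 0 and 0 with hairpins #1 to #3, and about 1 in each Soft library, all under the floor of 3 counts (0.131 to 0.148 CPM), and no fold change is given. Of 16 further metallothionein genes and pseudogenes, 10 were rows of the table and none had enough counts to be tested: MT1DP had 3 counts in Control 1 and 2, 2 and 1 in Soft, MT1A 1 count in Soft 1, MT3 1 count with hairpin #3, and the other 7 had none.

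Summed over all 16 metallothionein rows, which removes the split of reads among these rows but not that between MT1X and the pseudogene MT1XP1 or the unnamed overlapping gene, neither of them summed, the level was 863 ± 22.4 CPM in Control (SD, n = 3), 583 ± 56.3 CPM (67.5% of Control) with the hairpins and 747 ± 21.5 CPM (86.5%) in Soft. The libraries were at 879, 874 and 838 CPM, at 646, 538 and 565 CPM, and at 768, 746 and 725 CPM, so the 3 conditions did not overlap. No p is given for a sum over chosen genes. The mean share of MT2A in these counts was 86.6% ± 0.608 in Control, 82.9% ± 1.65 in sh_PIP4K2B and 81.8% ± 0.416 in Soft, and that of MT1E 12.3% ± 0.635, 15.5% ± 1.31 and 16.1% ± 0.513 (SD, n = 3). In single libraries the MT2A share was, for example, 86.9% in Control 1 (exact Clopper-Pearson 95% interval 86.4% to 87.4%) and 81.9% with hairpin #2 (81.2% to 82.6%), the library with the fewest metallothionein counts (11176). MT1F made up 0.0136% ± 0.0103 of the counts in Control, 0.0314% ± 0.0167 in sh_PIP4K2B and 0.356% ± 0.101 in Soft.

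**Figure D3:**
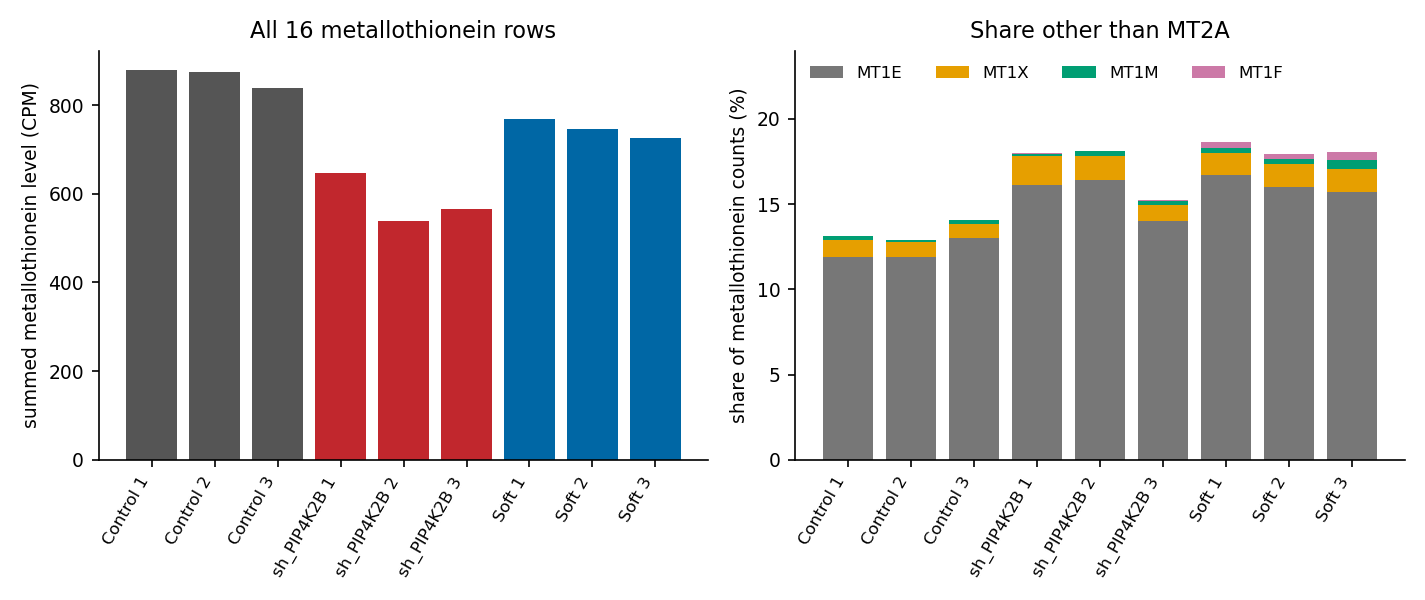
Left, summed TMM-normalised level (CPM) of the 16 metallothionein rows in each library. Right, share (%) of the summed metallothionein counts held by MT1E, MT1X, MT1M and MT1F, stacked, the remainder being MT2A with a trace of MT1G and other rows. The sum spans 838 to 879 CPM in Control, 725 to 768 CPM in Soft and 538 to 646 CPM in sh_PIP4K2B, and the MT1E share is 11.9% to 13.0% in Control and 14.0% or more in every other library.

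MTF1, the zinc sensor that drives metallothionein transcription, was even across the vector libraries and split by hairpin. It was at 25.2, 24.8 and 26.0 CPM in Control and at 23.3, 23.2 and 23.1 CPM in Soft, while hairpins #1, #2 and #3 gave 49.1, 36.1 and 19.5 CPM. Hairpins #1 and #2 were above all Control libraries, at 194% and 142% of their mean, and hairpin #3 was below them at 77.1%. No difference passed in the common fit: 0.46 for sh_PIP4K2B (SE 0.26, adjusted p = 0.25), -0.13 for Soft (SE 0.26, adjusted p = 0.72) and -0.59 between them (SE 0.26, adjusted p = 0.093). The differences of the hairpins rest on which are counted: without hairpin #1 they were 0.13 against Control (adjusted p = 0.68, edgeR) and -0.27 for Soft against sh_PIP4K2B (0.299), and without hairpin #3 both passed, at 0.75 (0.0045) and -0.89 (6.9e-04).

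SLC30A1, the exporter of zinc at the plasma membrane and a target of MTF1, split the hairpins in the same order. It was at 29.5, 31.4 and 30.5 CPM in Control, at 39.7, 36.9 and 24.8 CPM with hairpins #1 to #3, and at 24.2, 21.4 and 22.4 CPM in Soft. Every Soft library was below every library on glass, with hairpin #3 the nearest. The log2 difference was -0.43 in Soft against Control (SE 0.17, adjusted p = 0.058), 0.15 in sh_PIP4K2B against Control (SE 0.16, adjusted p = 0.56) and -0.58 in Soft against sh_PIP4K2B (SE 0.17, adjusted p = 0.018), none past the threshold in edgeR's common fit, while DESeq2 called the last (adjusted p = 0.0069). Without hairpin #3, both differences of Soft passed (-0.44, adjusted p = 0.0021, and -0.77, adjusted p = 2.5e-04).

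The other zinc transporters were read from lists of their families, of which most SLC30 proteins move zinc out of the cytosol and most SLC39 proteins move it in. Of 9 further SLC30 genes 6 were tested. With the hairpins 0 of the 6 passed by edgeR or DESeq2, which called 5.54% of all genes and 1996 of 19221 genes, and 0 had an unadjusted p under 0.05. At least 2375 of 13784 genes reached that limit, since so many passed an adjusted p of 0.05 in edgeR. In Soft, where 14.8% of all genes fell, 1 of the 6 did, SLC30A6, a transporter of the Golgi, from 43.0, 47.1 and 49.1 CPM in Control to 29.0, 28.8 and 28.4 CPM (log2 fold change -0.69, SE 0.11, adjusted p = 0.0011), and the median over the 6 was -0.41 beside 0.01 for all genes. Against sh_PIP4K2B, SLC30A6 (-0.70) and SLC30A9 (-0.64) were lower in Soft, although the call of SLC30A9 was lost in 10 of 17 alternatives.

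Of 14 SLC39 genes 11 were tested. With the hairpins edgeR called 0 of the 11, where 5.54% of all genes passed, and DESeq2 called 3, where it called 1996 of 19221 genes. An unadjusted p under 0.05 was reached by 7 of the 11, and by at least 2375 of 13784 genes. The exact share of all genes at that limit is not given here. In Soft 2 of the 11 fell, beside 14.8% of all genes: SLC39A6, which was at 111 to 117 CPM in Control and 77.0 to 81.0 CPM in Soft (log2 fold change -0.53, SE 0.09, adjusted p = 0.0013), and SLC39A14, a carrier of zinc, iron and manganese, at 147 to 150.3 CPM and 113 to 116 CPM (-0.38, SE 0.08, adjusted p = 0.0049). SLC39A6 was at 152, 153 and 137 CPM with the hairpins and shares 4.38% of its words with an overlapping gene, and its call was lost without Soft replicate 2 (adjusted p = 0.0106). The call of SLC39A14 was lost in 10 of 17 alternatives, among them each that left out a Control or Soft library. Against sh_PIP4K2B, SLC39A1 (1.26, adjusted p = 9.2e-04) and SLC39A11 (1.20, adjusted p = 3.1e-04) were higher in Soft, and SLC39A6 (-0.90, adjusted p = 1.0e-04) and SLC39A9 (-0.63, adjusted p = 5.9e-04) lower. Against Control, SLC39A1 stood at -0.88 with the hairpins and 0.38 in Soft, SLC39A11 at -0.63 and 0.57, and SLC39A9 at 0.31 and -0.32, none past the threshold. All of these genes but SLC39A6, like SLC30A9, are named to complete the counts, a choice made with their values in view.

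**Figure D4:**
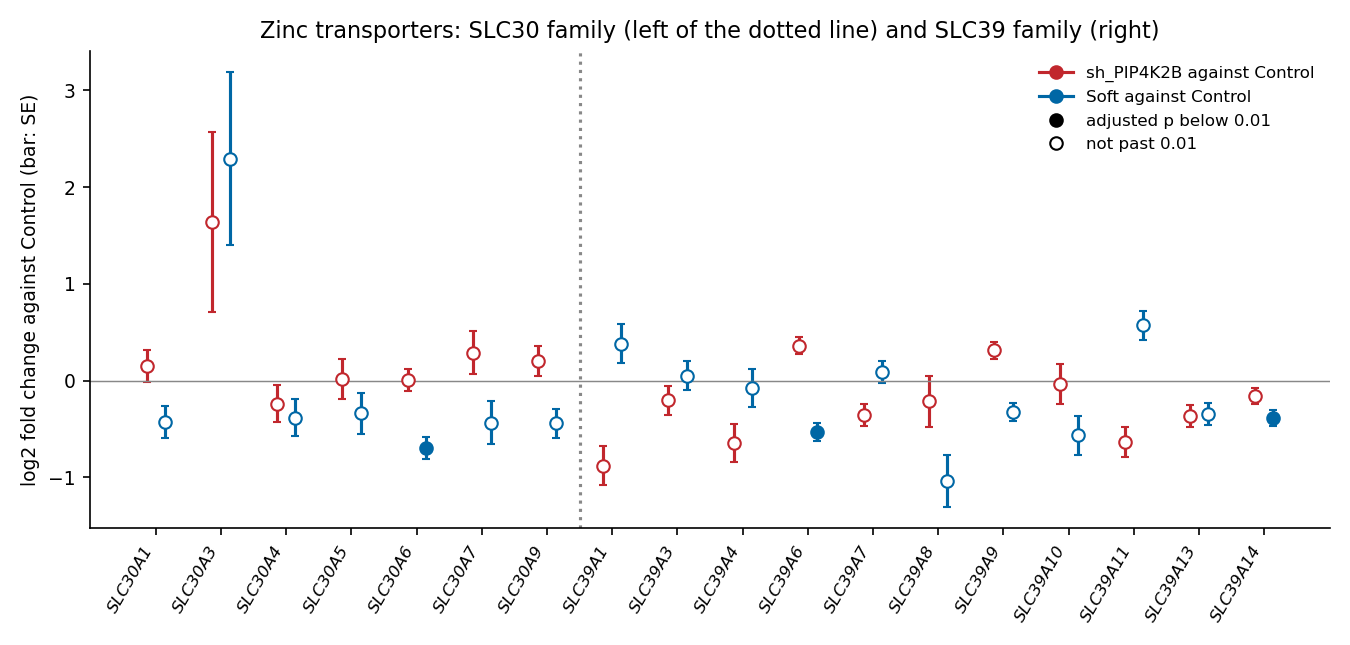
Log2 fold change against Control (points, bars: SE) of the tested SLC30 genes, SLC30A1 first, and SLC39 genes, for sh_PIP4K2B and Soft, filled past an adjusted p of 0.01. The filled points are SLC30A6 at -0.69, SLC39A6 at -0.53 and SLC39A14 at -0.38, all in Soft, and no sh_PIP4K2B point is filled.

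Copper, which metallothioneins also bind, was followed in 14 genes of copper handling, all tested. edgeR called 0 with the hairpins, where 5.54% of all genes passed, and DESeq2 called 1, where it called 1996 of 19221 genes. An unadjusted p under 0.05 was reached by 2 of the 14, again beside at least 2375 of 13784 genes and without the exact share. In Soft 1 rose and 4 fell, 5 of 14 where 30.6% of all genes passed. CCS, which loads copper onto superoxide dismutase, was at 12.9 to 15.2 CPM in Control and 25.6 to 26.8 CPM in Soft (log2 fold change 0.87, adjusted p = 0.0043). SCO1, a copper chaperone of cytochrome oxidase, was at 40.8 to 45.3 and 18.9 to 22.9 CPM (-1.02, adjusted p = 2.0e-04), and the copper transporter SLC31A2 at 7.12 to 9.26 and 5.05 to 5.27 CPM (-0.71, adjusted p = 0.0037). LOX, the copper enzyme that crosslinks collagen, had 501, 878 and 1970 CPM with hairpins #1 to #3 around a Control range of 1504 to 1668 CPM, and 503 to 534 CPM in Soft (-1.60, adjusted p = 0.0091). SCO2 was the other gene lower in Soft. SCO1 passed in all 17 alternatives, while CCS, SLC31A2 and LOX lost the call in 6, 7 and 10 of them, with most of the Control and Soft libraries left out in turn.

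Genes of other routes that are known to reach metallothioneins were counted in 3 lists. Of 18 oxidative stress targets of NRF2 17 were tested, of which 1 rose with the hairpins (5.54% of all genes passed) and 5 rose and 4 fell in Soft (30.6% passed). The ferritin heavy chain gene FTH1, of which 31.5% of words are shared with pseudogenes, was at 1726 to 1786 CPM in Control, 2541 to 2869 CPM with the hairpins (log2 fold change 0.60, adjusted p = 0.0094) and 4058 to 4274 CPM in Soft (1.24, adjusted p = 6.1e-05). In Soft, NQO1, a quinone reductase, rose (1.11, adjusted p = 2.5e-04), as did the autophagy receptor SQSTM1 (0.95, adjusted p = 0.0089, lost in 8 of 17 alternatives), and the thioredoxin reductase TXNRD1 fell (-1.62, adjusted p = 6.4e-04). The median over the 17 was -0.26 in Soft and 0.09 with the hairpins.

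Heat shock genes, which rise with misfolded protein and with cadmium, were all 13 tested, and 3 rose with the hairpins (2.76% of all genes rose) while 3 fell in Soft (14.8% fell). HSPA6 was at 1.01 to 1.05 CPM in Control and at 126, 10.5 and 17.9 CPM with hairpins #1 to #3 (log2 fold change 5.64, SE 0.95, adjusted p = 0.0053), and HSPA1A at 89.7 to 98.8 CPM and 1046, 470.3 and 349 CPM (2.70, SE 0.35, adjusted p = 0.0017). HSPH1 was at 194 to 207 CPM and 551, 366 and 348 CPM (1.06, SE 0.17, adjusted p = 0.0042). These genes were highest with hairpin #1, the library in which MTF1, SLC30A1, MT1X, MT1E and MT2A were also highest among the hairpins and MT1M lowest, a relation over 3 libraries that cannot be tested. HSPA6 and HSPA1A share 35.3% and 73.8% of their words with close copies. In Soft, HSPD1 fell (-1.15, adjusted p = 2.4e-04), as did HSPA8 and HSPE1.

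Of 14 genes that respond to glucocorticoids 11 were tested. With the hairpins 2 rose, where 2.76% of all genes did, the transcription factors KLF9 (log2 fold change 1.09, adjusted p = 0.0066) and CEBPD (2.53, adjusted p = 0.0026). In Soft 5 rose and 2 fell, where 15.8% and 14.8% of all genes did, and the median over the 11 was 0.72 beside 0.01 for all genes. KLF9 was at 23.1 to 24.1 CPM in Control and 82.9 to 92.4 CPM in Soft (1.89, adjusted p = 9.0e-05), CEBPD at 2.32 to 2.68 and 10.5 to 13.2 CPM (2.23, adjusted p = 9.7e-04), NFKBIA at 17.6 to 18.3 and 51.2 to 56.6 CPM (1.57, adjusted p = 5.2e-04) and TSC22D3 at 19.6 to 21.0 and 52.1 to 54.3 CPM (1.40, adjusted p = 8.4e-04). GLUL also rose, DUSP1 and SGK1 fell, and FKBP5, another standard target, was at 32.9 to 35.7 CPM in Control, 23.1 to 25.2 CPM with the hairpins and 25.7 to 29.0 CPM in Soft without passing. In a fit of only sh_PIP4K2B and Control none of the calls named here for the hairpins held (adjusted p 0.020 for HSPA1A to 0.073 for FTH1, edgeR), and leaving out any 1 Control library ended each of them as well.

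Marker lists of cell types were summed and not tested as lists. The summed keratins and other simple epithelial genes were at 1934 to 2086 CPM in Control, 714 to 1130 CPM with the hairpins and 908 to 959 CPM in Soft, with KRT18 called lower in both (log2 fold change -1.10 and -1.31) and KRT8 in Soft (-0.98, lost in 6 of 17 alternatives). KRT7, the other tested gene of the list, went the other way in Soft. It was at 12.4 to 12.8 CPM in Control, 5.88 to 10.2 CPM with the hairpins and 15.7 to 16.1 CPM in Soft. Its rise in Soft did not pass against Control (0.32, adjusted p = 0.16, edgeR) and passed against sh_PIP4K2B (0.99, adjusted p = 0.0018). Mesenchymal genes summed to 36630 to 38050 CPM in Control, 14680 to 47290 CPM with the hairpins and 38470 to 43870 CPM in Soft, so the hairpin libraries enclose Control. In Soft, COL1A1 (0.98, lost in 8 of 17 alternatives) and PDGFRB (2.80) rose, 3 of the 7 values were positive with a median of -0.26, and COL1A2 (-2.16), THY1 (-0.59), VIM (-0.48) and CDH2 (-0.26) were negative without passing. Pigment epithelium genes summed to 66.1 to 72.2, 48.9 to 64.6 and 77.2 to 81.6 CPM, with OTX2 called higher with the hairpins (0.65) and in Soft (1.77), BEST1 higher in Soft (2.23, lost in 8 of 16 alternatives) and RDH5, which shares 49.0% of its words with an overlapping gene, lower with the hairpins (-2.26). BEST1 was kept for testing through its Soft libraries, with 17, 14 and 16 counts there. In Soft, RDH5 (-0.83) and MITF (-0.49) were below Control in every library without passing. The calls of KRT18, OTX2 and RDH5 with the hairpins did not hold in a fit of only sh_PIP4K2B and Control (adjusted p = 0.0231, 0.063 and 0.0188, edgeR). Their part in the metallothionein levels was not tested.

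The 5 genes whose profile over the 9 libraries was most like that of MT2A, by the root mean square difference of mean-centred log2 CPM, were H2AFX (0.0579), SUV39H1 (0.0676), RECQL4 (0.0799), MFSD12 (0.0804) and GMPPB (0.0806), against a spread of 0.268 in MT2A itself. H2AFX encodes the histone H2A.X and SUV39H1 a histone H3 lysine methyltransferase. For MT1X, whose own spread was 0.301, they were ERBB2 (0.0714), WDR34 (0.0727), PIGQ (0.0808), ACOT8 (0.0908) and KIFC2 (0.0911). The likeness is a description over 9 libraries that share conditions and hairpins.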

How the data were processed

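RNA of hTERT_RPE1 cells was measured by stranded mRNA sequencing in 9 libraries, 3 each of Control, sh_PIP4K2B and Soft, grouped by the submitters' labels. The authors aligned paired reads of 75 nt to the human genome (GRCh38/hg38) with STAR, the submitters' processing notes also name Salmon, and the gene annotation is not given in the sources used here. The deposited table holds estimated counts per gene symbol, not normalised, of which 12.3% of values were not whole. All were rounded to whole numbers before fitting.

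Members and lists were chosen with earlier results of these data known. All tests ran over 13784 genes kept by filterByExpr, with TMM scaling and edgeR 4.0.16 (R 4.3.3) quasi-likelihood F tests in 1 fit of the 9 libraries, Benjamini-Hochberg adjusted, threshold 0.01, and SE taken as the absolute log2 fold change over the square root of F. The study's own choice, DESeq2 (1.42.0), was an alternative, as were other filters and scalings, a threshold of 0.05, a replicate block, fits of 2 conditions and leaving out each library. The fitting script was tested on data simulated with changes in Soft. Of 107 genes changed 2-fold edgeR recovered 31 and DESeq2 78, and of 93 changed 4-fold 80 and 91. A gene that did not pass can therefore still differ. Intervals of shares are exact Clopper-Pearson and, like floors of 3 counts, cover counting error only. Totals were 22560086 to 24020799 counts in Control, 19217346 to 22420167 in sh_PIP4K2B and 20478070 to 21776264 in Soft, and no pair of libraries agreed within sampling noise. Named genes were the 8 members, PIP4K2B, other metallothioneins with any count, up to 4 genes per list past the threshold against Control with the largest log2 fold change, and the 5 nearest profiles to MT2A and to MT1X. Genes named beyond that rule (MT1B, MT1H, SLC30A9, SLC39A1, SLC39A9, SLC39A11, FKBP5, single markers and those that complete a count) were chosen after their values were seen. Not every gene counted in a list is reported here by name. Gene positions and transcript lengths came from GENCODE (GRCh38) and promoters from RefSeq (GRCh38.p14).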

Additional observations from a re-analysis of the deposited data

Results flagged for a closer look

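MT1F differed between the conditions other than Control. Its log2 difference of Soft minus sh_PIP4K2B was 3.76 (SE 0.48, adjusted p = 3.0e-04, edgeR's quasi-likelihood test), higher in 3 of 3 Soft libraries than in any hairpin library, with 60, 40 and 74 counts against 7, 3 and 2. It was singled out by a rule on this difference between the soft gel and the hairpins. The filter on low counts kept MT1F for its Soft libraries, so this p-value only describes the counts.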

How the results depend on the processing

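The log2 fold change of MT1F in Soft ran from 4.06 to 5.18 against Control and from 3.45 to 4.37 against sh_PIP4K2B over 17 alternative analyses and passed in each, which adds no independent support, since MT1F entered the filtered fits through its Soft counts. The lower MT2A of sh_PIP4K2B kept its sign in all 17 (-0.70 to -0.53), passed in 8 and missed the threshold in 9 (adjusted p from 2.8e-08 to 0.057, edgeR or DESeq2): library size only (0.024), the replicate block (0.021), the fit of 2 conditions (0.057) and each fit without 1 Control or 1 Soft library. MT1X in sh_PIP4K2B turned from 0.08 to -0.23 without hairpin #1, the 1 reversal among the values tried, and ran from -0.23 to 0.30 over the fits without 1 library.

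Of the members, 0 passed in sh_PIP4K2B against Control with library size only, with the block and in the fit of 2 conditions, where MT1F was not kept by the filter, 2 in Soft against Control by DESeq2 and 6 in the fit of 2 conditions, and in Soft against sh_PIP4K2B 5 at a threshold of 0.05, 2 with a mean of at least 1 CPM, 2 with library size only, 3 with the upper quartile and 5 by DESeq2. Without 1 library these counts ran from 0 to 2, 1 to 2 and 1 to 3. Over all 13784 tested genes, 2375, 6498 and 6372 passed at 0.05 (sh_PIP4K2B, Soft, and Soft against sh_PIP4K2B, beside 763, 4217 and 4135 at 0.01). In the same order DESeq2 called 1996, 5334 and 5358 of 19221 genes, and fits of 2 conditions 5 of 13331, 9601 of 13578 and 2183 of 13550. Fits without 1 library called 66 to 2013, 2506 to 6373 and 2350 to 5374. In Soft against sh_PIP4K2B, 3961 of 12640 genes passed with a mean of at least 1 CPM, 3768 with library size only and 4129 with the upper quartile. In sh_PIP4K2B against Control, library size only called 667 genes and the block 295. Apart from the fit of 2 conditions and the threshold, which change the samples or the limit by construction, the cause was not tested. Library size alone moved the median log2 fold change of all genes in Soft by 0.107.

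No pairing by the replicate numbers of the labels was seen: deviations of same-numbered libraries correlated between -0.115 and 0.0399. With 3 libraries a group this cannot exclude a pairing, and the sample titles number the empty vectors of Control and Soft alike. With the replicate block 295 genes passed in sh_PIP4K2B against Control, and MT2A did not (-0.63, adjusted p = 0.021).

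With 1 to 7 counts on glass, the depth limits the fold of MT1F to its counting interval, and MT1G could not be tested.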
